A study of Homo sapiens
Mus musculus and Homo sapiens with 2 samples.

Results

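The data compared 1060 NIH/3T3 cells that had taken up 4-thiouridine (S4U) with 1045 NIH/3T3 cells that had not. NIH/3T3 is an established mouse embryonic fibroblast line. The cells were chosen as those the authors called mouse in a mixture with HEK293T, a human embryonic kidney line, and whose labelling group was either S4U alone or no labelling. They made up 2105 of the 3132 mouse cells and of the 6307 cells of the mixture, in a series of 13711 cells. The S4U group had 200 µM S4U in the medium for 6 h before harvest, and the other group had none. Neither group had iodoacetamide. Both were grown in the same high-glucose medium with serum, fixed with paraformaldehyde, frozen and later permeabilised. A label of the mixture also lists dexamethasone, which the treatment protocol gives to A549 cells alone. No label gives more than 1 culture per group, so no difference below has a replicate check, no p-value is given, and every interval covers counting error only.

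S4U is a uridine analog that cells build into RNA as they make it. In sci-fate, a combinatorial-indexing single-cell RNA assay, iodoacetamide later alters the incorporated S4U so that reverse transcription reads a T-to-C change, which marks a molecule as newly synthesised. Without iodoacetamide the label is in the RNA but is not converted, so these cells show what S4U exposure itself went with. Thiolated uridine is known to be able to disturb ribosomal RNA processing and to cause nucleolar stress at high doses or long exposures. Nucleolar stress is a known route to p53, a transcription factor that switches on genes of cell cycle arrest, DNA repair and cell death, as well as its own inhibitor Mdm2.

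The S4U cells held 8963836 counts on mouse genes and the cells without S4U 9136422. The median cell had 7624 counts with S4U (quartiles 5030 and 10851) and 7938 without (quartiles 5432 and 10874). Cells thinned to 3000 counts had a median of 1586 detected genes with S4U, over 973 cells, and 1590 without, over 981 cells. Unthinned, the medians were 3005 and 3076. The thinning left out 87 S4U cells and 64 cells without S4U. Human genes took 0.445% of counts in S4U cells and 0.441% in cells without S4U. Cells that the authors called as both species were 35 of 1550 in the S4U group and 42 of 1646 in the group without S4U. No cell name occurred more than once. The cells of each group came from 91 reverse transcription indexes, and no index held more than 1 labelling group, so the culture, the wells and S4U itself cannot be told apart.

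The markers of the labelled line were present in both groups. All 16 fibroblast markers were detected, and 15 had at least 100 counts. Scaled to 1000000 mouse counts of the group (CPM), their summed level was 22431 with S4U and 21846 without. Vim, an intermediate filament gene of mesenchymal cells, had 7216 CPM with S4U and 7558 without, and Fn1, which encodes fibronectin, had 2000 CPM and 1918 CPM in that order. Of 11 epithelial markers, 7 had no count, among them Epcam, and the list summed to 36.6 CPM with S4U and 41.2 CPM without, most of it Krt14. The 11 blood and endothelial markers summed to 8.26 CPM with S4U and 5.25 CPM without, with Hbb-bs and Kdr among those at 0.

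Most genes had nearly the same share of counts in S4U cells as in cells without S4U. Of 9609 genes with at least 100 counts over both groups, 97.3% had a ratio of CPM, S4U over no S4U, within 1.5-fold (0.58 on the log2 scale). The median log2 ratio was 0.03, the quartiles were -0.12 and 0.18, and the 5th and 95th percentiles were -0.35 and 0.44. A ratio of 1.5 or more was found in 189 genes, or 1.97% of those compared, and a ratio at or below the inverse of 1.5 in 68 genes, or 0.708%. With trimmed mean of M values (TMM) scaling these shares were 1.47% and 0.989%, and with a minimum of 400 counts 0.705% and 0.659%. A gene with 100 counts split equally between the groups carries a 95% interval of the ratio from 0.675 to 1.54, and a gene with 1000 counts one from 0.899 to 1.16, so small ratios of rare transcripts were not resolved at this depth.

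**Figure D1:**
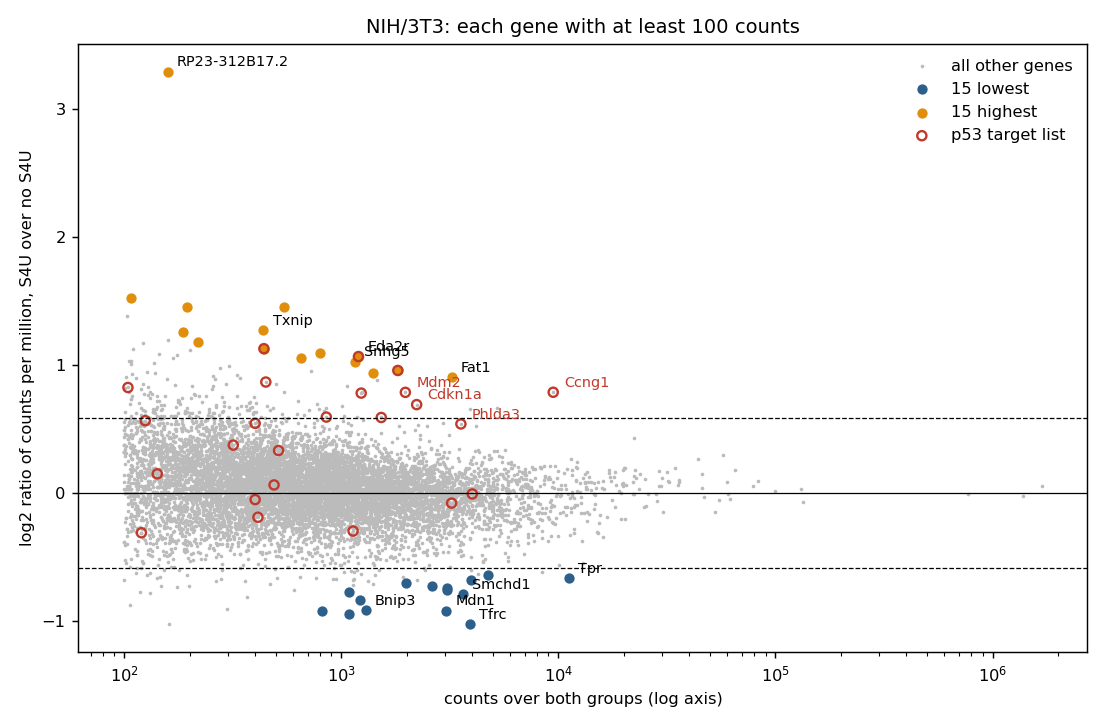
Log2 ratio of CPM, S4U over no S4U (vertical axis), against the counts of a gene over both groups (horizontal log axis), for 9609 mouse genes. Grey points are all other genes, filled points the 15 genes named at each end, open circles the 24 p53 target genes with at least 100 counts, and dashed lines a 1.5-fold ratio. Most genes lie between the lines, Ccng1 and Mdm2 lie above the upper one at high counts, and Tfrc and Tpr lie below the lower one.

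The p53 target list had the highest median ratio of the lists with at least 5 genes compared. The lists and their members were chosen with earlier results of these data known, so this ranking and the shares below are a description only. Of its 29 genes, 24 had at least 100 counts, 11 of these (45.8%) were 1.5-fold or more higher with S4U, and none was 1.5-fold or more lower, against 1.97% and 0.708% of all genes compared. The median log2 ratio of the 24 genes was 0.55, against 0.03 over all genes compared, and 18 of the 24 were above 0, against 5340 of all 9609 genes. Summed over the whole list, these genes took 0.236% of counts in S4U cells and 0.165% in cells without S4U, a ratio of 1.43 (95% interval 1.396 to 1.46). Scaling changed how many members passed the fold, which was 9 of 24 with TMM or median-of-ratios scaling and 12 of 24 with each cell weighted equally.

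Genes of cell cycle arrest and of feedback on p53 had more counts with S4U, while the p53 gene itself did not. Ccng1, which encodes cyclin G1, a p53-induced regulator that also acts on Mdm2, had 5951 counts (664 CPM) with S4U and 3516 (385 CPM) without, a ratio of 1.73 (1.65 to 1.80). Cdkn1a, the gene of the cyclin-dependent kinase inhibitor p21, had 1363 counts (152 CPM) with S4U and 861 (94.2 CPM) without, a ratio of 1.61 (1.48 to 1.76). Mdm2, the ubiquitin ligase gene that limits p53, had 1240 counts (138 CPM) with S4U and 733 (80.2 CPM) without, a ratio of 1.72 (1.57 to 1.89). In each of these 3 genes the S4U culture was the higher one, and the interval of the ratio excluded 1. Trp53, the mouse p53 gene itself, had 173 CPM with S4U and 183 CPM without, a ratio of 0.947 (0.883 to 1.02), an interval that included 1. Btg2, an antiproliferative gene, had 74 counts with S4U and 51 without, and its ratio of 1.48 had a wide interval of 1.02 to 2.16. Trp53inp1, which encodes a nuclear protein that promotes p53 activity, had the highest log2 ratio of the list at 1.13, with 33.5 CPM with S4U and 15.3 CPM without.

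Among receptors and cell death genes, Eda2r, a receptor of the tumour necrosis factor family, had 90.03 CPM with S4U and 43.0 CPM without, a ratio of 2.09 (1.85 to 2.37). Tnfrsf10b, a death receptor gene of the same family, had 288 counts with S4U and 161 without, a log2 ratio of 0.87. Bax, the pore-forming death effector, had 102 CPM with S4U and 67.5 CPM without, a ratio of 1.51 (1.36 to 1.67). These genes stood higher with S4U, but not every death gene did. Bbc3, which encodes the BH3-only protein PUMA, had 53 counts with S4U and 67 without, and its interval of 0.552 to 1.17 included 1. Pidd1, a scaffold gene of caspase activation, had 66 counts with S4U and 38 without, a log2 ratio of 0.82. Fas, a further death receptor, had 51 counts with S4U and 20 without, under the minimum used here.

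Zmat3, an RNA-binding protein gene, had 1194 counts (133 CPM) with S4U and 627 (68.6 CPM) without, a ratio of 1.94 (1.76 to 2.14). Ei24, a gene of the endoplasmic reticulum and autophagy, had 86.5 CPM with S4U and 50.3 CPM without, a log2 ratio of 0.78. Phlda3, an inhibitor of Akt, had 233 CPM with S4U and 160 CPM without, and its ratio of 1.45 (1.36 to 1.55) lay just inside the fold. Polk, a translesion DNA polymerase gene, was just past it at 1.51 (1.31 to 1.73). Other repair and stress members were closer to equal, with log2 ratios of 0.54 for the nuclease gene Aen, 0.37 for Gadd45a, 0.33 for the ribonucleotide reductase gene Rrm2b and -0.05 for the lesion sensor gene Xpc. Not all members leaned upward. Plk2, a polo-like kinase gene, had 1982 counts with S4U and 2031 without, a ratio of 0.995 (0.934 to 1.06), and the related Plk3 had a log2 ratio of 0.15. The sestrin genes Sesn1 and Sesn2, which restrain the growth kinase mTORC1, had log2 ratios of 0.06 and -0.19. Ddit4, which acts on the same kinase and also answers to other stresses, had 503 counts with S4U and 630 without, a ratio of 0.814 (0.722 to 0.916). Cdkn2a, Perp, Pmaip1 and Tigar had no count in either group. In thinned cells that was 0 of 973 with S4U and 0 of 981 without for each gene, which allows up to 0.378% and 0.375% of cells with a count at this depth, and sets no limit on the cells that expressed the gene.

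**Figure D2:**
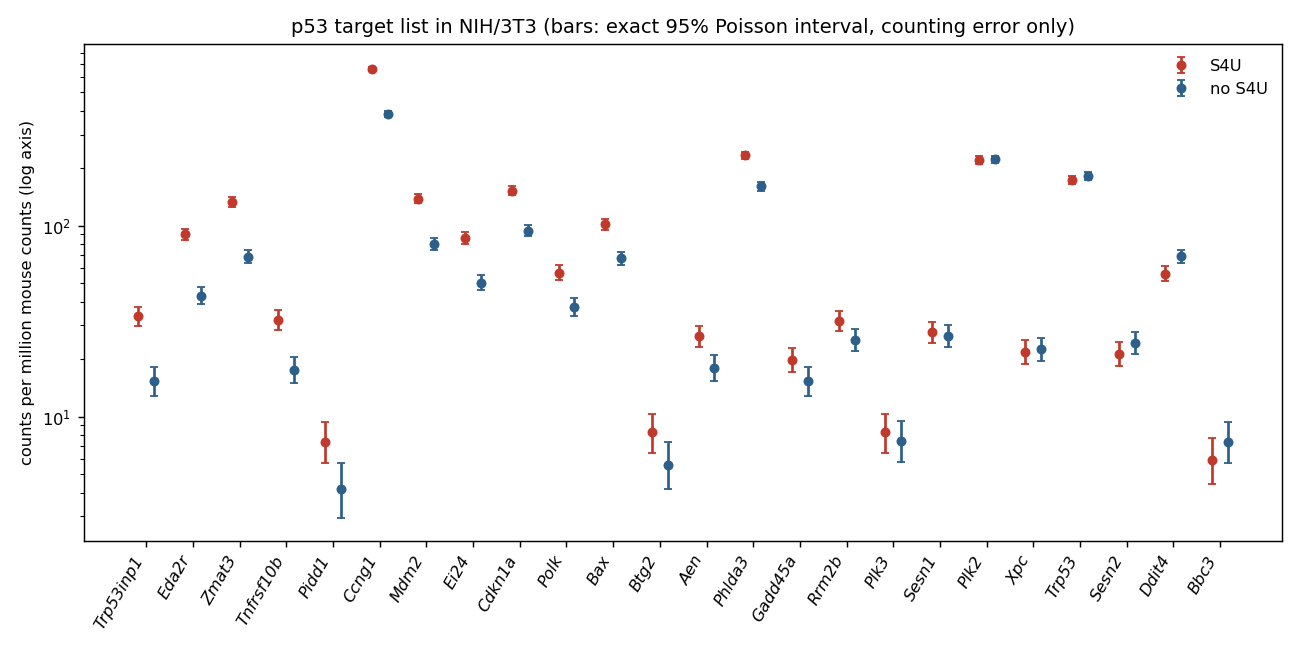
CPM (vertical log axis) of the 24 p53 target genes with at least 100 counts in NIH/3T3 cells with S4U (red, left of each pair) and without S4U (blue), ordered by their ratio. Points are the summed counts of 1 culture per group and bars are exact 95% Poisson intervals, which cover counting error only. The red points lie above the blue ones from Trp53inp1 to Sesn1, and Plk2 has 221 CPM with S4U and 222 CPM without.

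The same counts were then described cell by cell, which is not further support for the difference. Cells of 1 culture are not replicates. The intervals of detected shares treat cells as independent draws and cover no difference between cultures. After thinning to 3000 counts, an S4U cell had a mean of 7.25 counts on the p53 target list and a median of 7 (quartiles 5 and 9), and a cell without S4U a mean of 4.94 and a median of 5 (quartiles 3 and 7). The 10th and 90th percentiles were 3 and 12 with S4U and 2 and 8 without, so the distributions overlapped but were shifted at both ends. Cells with no count on the list were 0.308% of S4U cells and 1.12% of cells without S4U. Ccng1 was detected in 84.3% of thinned S4U cells (95% interval 81.8 to 86.5) and 62.1% of those without (58.96 to 65.1), against 90.6% and 83.5% unthinned. Zmat3 was detected in 32.0% (29.04 to 35.0) and 17.23% (14.9 to 19.7), Cdkn1a in 34.1% (31.1 to 37.2) and 22.8% (20.2 to 25.6), and Eda2r in 23.6% (21.0 to 26.4) and 10.3% (8.46 to 12.4) of thinned cells with and without S4U. Unthinned, these were 58.6% and 38.7% for Zmat3, 58.02% and 41.6% for Cdkn1a, and 45.2% and 26.4% for Eda2r. Free RNA gave a small background in this measure. HEK293T cells of the same groups held a median of 36 mouse counts, against 7779 in NIH/3T3 cells, and Ccng1 was detected in 0.659% of HEK293T cells with S4U and in 0% of those without.

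**Figure D3:**
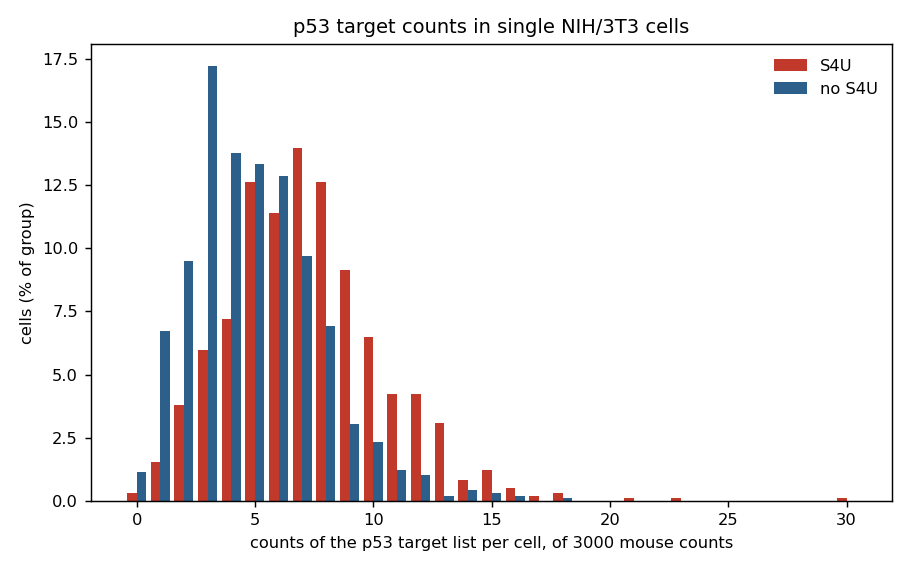
Share of NIH/3T3 cells (vertical axis, % of the group) with a given number of p53 target counts among 3000 mouse counts (horizontal axis), for S4U cells (red, 973 cells) and cells without S4U (blue, 981 cells). The S4U distribution sits to the right, with a median of 7 against 5, and the shift runs over the whole range of counts per cell.

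The 15 genes farthest above 1, ranked by the lower bound of the ratio, held 3 members of the p53 target list, Trp53inp1, Eda2r and Zmat3. Of all 9609 genes compared, 24 were on that list. These 3 ratios are part of the list values above and not a separate result. RP23-312B17.2, annotated as a lincRNA, had 144 counts with S4U and 15 without, a ratio of 9.78 (5.74 to 17.9) and the largest among the genes compared. The noncoding transcript 9230114K14Rik had 397 counts (44.3 CPM) with S4U and 148 (16.2 CPM) without, a ratio of 2.73 (2.26 to 3.33). Txnip, whose product binds thioredoxin and restrains glucose uptake, had 308 counts (34.4 CPM) with S4U and 130 (14.2 CPM) without, a ratio of 2.41 (1.96 to 2.99). All 3 stood well apart from equality.

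Fat1, which encodes a large atypical cadherin, had the most counts of these 15 genes, with 233 CPM with S4U and 124 CPM without, a ratio of 1.87 (1.74 to 2.01). The other genes at this end were Hyal1, a hyaluronidase gene, with a ratio of 2.88 (1.85 to 4.60), Fam212b with 2.73 (1.98 to 3.82), Dcxr, which encodes a carbonyl reductase, with 2.38 (1.73 to 3.32), and Mreg with 2.26 (1.69 to 3.06). Ak1, an adenylate kinase gene, had 2.14 (1.84 to 2.49), Pdrg1, named for its regulation by p53 and DNA damage, 2.08 (1.76 to 2.46), Snhg5, a host gene of small nucleolar RNAs, 2.04 (1.80 to 2.31), and Carhsp1, an RNA-binding protein gene, 1.92 (1.71 to 2.14). Among genes 1.5-fold or more higher, Exoc4 and Ptgs2 had the most counts after Ccng1. Exoc4, a subunit gene of the exocyst, had a ratio of 1.58 (1.499 to 1.68). Ptgs2, which encodes the inducible cyclooxygenase, had 1.57 (1.48 to 1.68). Exoc4 was named after its value was seen.

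At the lower end the ranking by the bound nearest 1 put Tfrc first. Tfrc, the transferrin receptor gene through which cells take up iron, had 1278 counts (143 CPM) with S4U and 2653 (290 CPM) without, a ratio of 0.491 (0.459 to 0.525). It was detected in 32.4% of thinned S4U cells (29.4 to 35.4) and 54.2% of those without (51.1 to 57.4). Atr, the kinase gene that responds to stalled replication forks, had 367 counts (40.9 CPM) with S4U and 721 (78.9 CPM) without, a ratio of 0.519 (0.456 to 0.589). Pdk1, a kinase gene that limits entry of pyruvate into mitochondria, had a ratio of 0.528 (0.455 to 0.611), and Bnip3, a mitophagy and hypoxia gene, 0.529 (0.471 to 0.594). All 4 intervals lay wholly past the fold on the lower side.

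Mdn1, which encodes the ATPase midasin of large ribosomal subunit assembly, had 116 CPM with S4U and 219 CPM without, a ratio of 0.528 (0.490 to 0.570). Tpr, a nuclear pore basket gene, had the most counts of the lowest 15, with 4278 (477 CPM) with S4U and 6911 (756 CPM) without, a ratio of 0.631 (0.607 to 0.656). Smchd1, a chromatin gene of X inactivation, had 0.578 (0.539 to 0.619), Cep290 of the centrosome and cilium 0.559 (0.496 to 0.630) and Pcm1 of the centriolar satellites 0.640 (0.603 to 0.679). Usp7, a deubiquitinase gene whose product acts on Mdm2 and p53, had 126 CPM with S4U and 213 CPM without, a ratio of 0.592 (0.550 to 0.638). Xrn2, a nuclear exoribonuclease gene, had 0.599 (0.556 to 0.645), and Srpk1, a kinase gene of splicing factors, 0.604 (0.557 to 0.654). The remaining 3 were Ibtk with 0.584, Dnajc13 of endosomes with 0.614 and Ktn1, which encodes kinectin, with 0.623.

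Iodoacetamide-treated cells of the same line gave the same contrast a second time, in other cells and wells. There 425 NIH/3T3 cells had S4U and iodoacetamide and 559 had iodoacetamide only, with 3085966 and 4323104 mouse counts. The labels do not say whether the cultures were the same, so this was not treated as a replicate. Of 7693 genes with at least 100 counts, 2.37% were 1.5-fold or more higher with S4U and 2.14% were 1.5-fold or more lower. In the p53 target list, 7 of 20 genes were 1.5-fold or more higher, none was that much lower, and the median log2 ratio was 0.40. Ccng1 had 671 CPM with S4U and 375 CPM without, a ratio of 1.79 (1.68 to 1.91), Mdm2 had 148 CPM and 88.6 CPM, and Cdkn1a had 124 CPM and 78.2 CPM in that order. Tnfrsf10b, with a log2 ratio of 0.04, stood apart from its value in the cells without iodoacetamide. With no count minimum set in these cells, 14 of the 15 highest genes were 1.5-fold or more higher here too. The exception was Mreg, with 42 counts with S4U and 42 without, and a log2 ratio of 0.49 (-0.17 to 1.14). RP23-312B17.2, Hyal1, Fam212b, Dcxr and Mreg had fewer than 100 counts over both of these groups. The share of 2.37% above is therefore not a like measure for the 15 genes. RP23-312B17.2 had 15.2 CPM with S4U and 0.694 CPM without, a ratio of 21.9 with a wide interval from 7.06 to 110. Of the 15 lowest genes, 10 were 1.5-fold or more lower in these cells, with Tfrc at 137 CPM with S4U and 292 CPM without, a ratio of 0.470 (0.420 to 0.525), and all 15 log2 ratios were below 0, from -1.09 to -0.35.

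**Figure D4:**
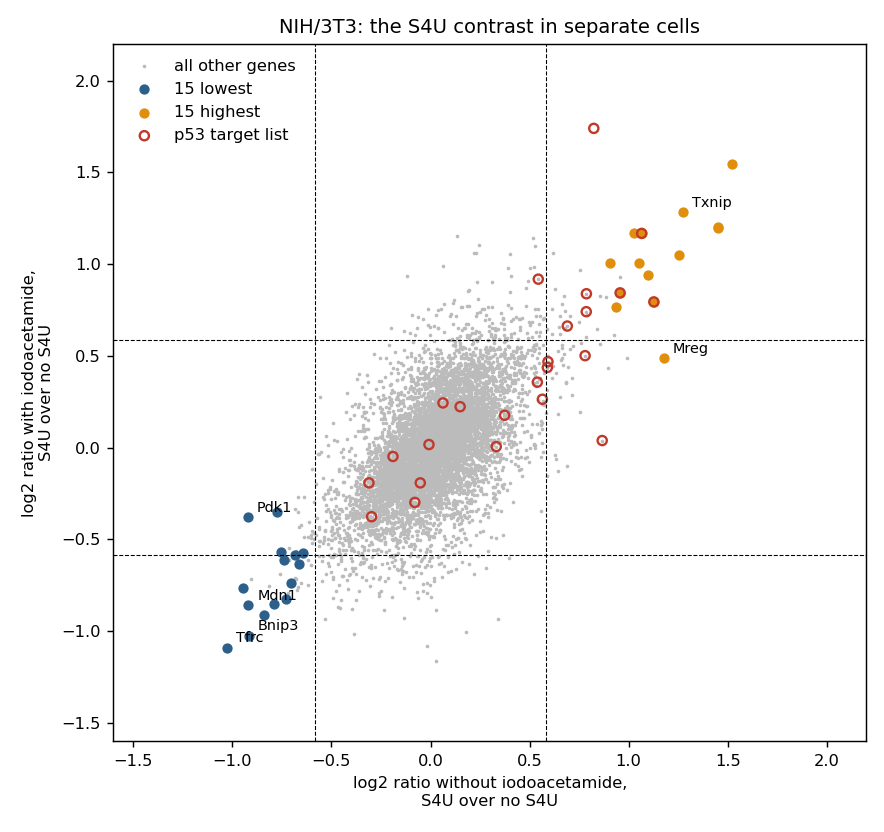
Log2 ratio of CPM, S4U over no S4U, in NIH/3T3 cells without iodoacetamide (horizontal axis) and in separate NIH/3T3 cells with iodoacetamide (vertical axis). Grey points are genes with at least 100 counts in each contrast, filled points the 15 genes named at each end, open circles the p53 target list, and dashed lines a 1.5-fold ratio. For filled points and open circles no count minimum was set in the iodoacetamide contrast. RP23-312B17.2, at 3.29 and 4.46, lies beyond the axes. Mreg is the filled point of the highest genes that falls below the upper horizontal line.

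In HEK293T cells of the same mixture the p53 target list gave other values. Of 11030 human genes with at least 100 counts, 3.67% were 1.5-fold or more higher with S4U and 3.83% were 1.5-fold or more lower. None of 19 p53 targets was 1.5-fold higher, 3 were 1.5-fold lower, and the median log2 ratio was 0.05. Of the 15 highest mouse genes, 9 had a human gene of the same symbol with at least 100 counts, and 2 of these, Txnip and Pdrg1, were 1.5-fold or more higher in HEK293T. Txnip had 18.6 CPM with S4U and 6.70 CPM without, and the median log2 ratio of the 9 genes was 0.12. Of the 15 lowest, all had such a gene, and 4, Tpr, Usp7, Cep290 and Tfrc, were 1.5-fold or more lower, with a median of -0.33 over the 15. Fat1, Atr and Pdk1 had ratios of 0.859, 1.00 and 0.914 in HEK293T. Trp53inp1 had 31 counts with S4U and 38 without there, under the minimum, and its ratio of 1.06 had a wide interval of 0.638 to 1.75.

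Genes of ribosome production leaned in opposite directions by role. None of 82 cytosolic ribosomal protein genes with at least 100 counts passed the fold in either direction. Of these, 78 lay above 0, against 5340 of all 9609 genes compared. The median log2 ratio was 0.17, and the list took 4.13% of counts with S4U and 3.73% without. Rps3 had 1859 CPM with S4U and 1657 CPM without, a ratio of 1.12 (1.098 to 1.15), and Rpl32 had a ratio of 1.13 (1.0999 to 1.15). Ribosomal protein genes have many processed copies in the genome, and the sources used here do not say how shared reads were counted. Of 48 genes of ribosome biogenesis, 7 lay above 0 and the median was -0.20. Rrp1b, a nucleolar gene, had the lowest ratio, 0.622 (0.556 to 0.696). In all, 2 of the 48 were 1.5-fold or more lower, against 0.708% of all genes compared. Taf1d, which encodes a subunit of the factor that recruits RNA polymerase I, was the highest with 200 CPM with S4U and 146 CPM without. The abundant nucleolar genes Ncl and Npm1 had ratios of 0.900 (0.885 to 0.916) and 0.903 (0.883 to 0.924). In iodoacetamide-treated cells the medians were 0.15 for ribosomal protein genes and -0.24 for ribosome biogenesis.

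Of 19 nuclear and host-gene noncoding RNAs with at least 100 counts, 5 were 1.5-fold or more higher and 1, Gm26917, was that much lower. The shares over all genes compared were 1.97% higher and 0.708% lower. In the list 16 lay above 0, against 5340 of all 9609 genes, and the median log2 ratio was 0.16. In iodoacetamide-treated cells 4 of 13 were 1.5-fold or more higher, against 2.37% of all genes there, with a median of 0.44. The list joins host genes of small nucleolar RNAs with other nuclear RNAs. The host gene Snhg5 had 771 counts with S4U and 386 without, Snhg1 had 679 and 387, and Zfas1 had 405 and 270 in that order. Gas5, a host gene known to accumulate when translation or growth is held back, had 148 CPM with S4U and 102 CPM without, a ratio of 1.45 (1.33 to 1.57). Malat1, a nuclear-retained RNA, had 3494 CPM with S4U and 2839 CPM without, a ratio of 1.23 (1.21 to 1.25), while Neat1 of the nuclear paraspeckles had 0.04 on the log2 scale. By annotated biotype, 9 of 71 genes of the class named processed transcript were 1.5-fold or more higher (12.7%), with a median of 0.25, against 1.86% of 9279 protein-coding genes.

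Cell cycle lists had medians on either side of 0. Of 49 S-phase genes, none passed the fold, 11 lay above 0, and the median log2 ratio was -0.12, with Atad2 at 581 CPM with S4U and 848 CPM without, a ratio of 0.686 (0.662 to 0.710), and Hells, a replication-linked chromatin remodeller gene, at 0.705 (0.669 to 0.743). The 50 genes of G2 and mitosis had a median of 0.08, with 1 past the fold in each direction. Among all genes compared 1.97% were that much higher and 0.708% lower. Gtse1, whose product binds p53 and microtubules, had 941 counts (105 CPM) with S4U and 520 (56.9 CPM) without, a ratio of 1.84 (1.66 to 2.06). Bub1, a spindle checkpoint kinase gene, had 553 counts with S4U and 878 without, a log2 ratio of -0.64. The proliferation gene Mki67 had 887 CPM with S4U and 862 CPM without, and Top2a, the topoisomerase gene of mitotic chromosomes, had 751 CPM and 931 CPM in that order. All 12 replication-dependent histone genes with at least 100 counts lay above 0, with a median of 0.14, and none passed the fold. In iodoacetamide-treated cells the medians were -0.15 for S-phase genes, -0.06 for genes of G2 and mitosis and -0.09 for histone genes, so the last 2 lists had the opposite sign there.

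In the other stress lists few genes passed the fold, against 1.97% higher and 0.708% lower among all genes compared. The integrated stress response had 1 of 21 genes past the fold, the glutathione-degrading gene Chac1, with 55 counts with S4U and 93 without, and a median of -0.07. In the unfolded protein response none of 19 passed, with a median of -0.08 and the chaperone gene Hspa5 lowest at 617 CPM with S4U and 800 CPM without, a ratio of 0.772 (0.745 to 0.799). None of 15 heat shock genes passed, 3 lay above 0, and the median was -0.05. NRF2 targets, which act against oxidative stress, had none of 25 past the fold, 21 above 0 and a median of 0.15, and the ferritin gene Fth1 had 2656 CPM with S4U and 2206 CPM without. Interferon response genes had 1 of 9 past the fold, Oasl1, with 84 counts with S4U and 38 without, and a median of 0.21. Ptgs2 was the 1 of 13 inflammatory genes past it, with 264 CPM with S4U and 168 CPM without, and the list median was 0.08. Immediate early genes and short-lived regulators both had a median of 0.06, over 23 and 31 genes, with none past the fold. Myc, which is in both, had 149 CPM with S4U and 168 CPM without. In iodoacetamide-treated cells the medians were -0.09 for the integrated stress response, -0.20 for the unfolded protein response, -0.06 for heat shock genes, 0.09 for NRF2 targets and 0.20 for interferon response genes. Inflammatory genes, at -0.07, and both lists of immediate early genes and short-lived regulators, at -0.04, had the opposite sign there.

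Of 21 glycolysis and hypoxia genes, 4 lay above 0, the median was -0.22, and Pdk1 and Bnip3 were the 2 past the fold on the lower side, while the abundant glycolytic genes Pkm, Ldha and Aldoa had log2 ratios of 0.10, -0.06 and -0.02. Summed over the list the ratio was 0.966. Over all genes compared, 1.97% passed the fold on the higher side and 0.708% on the lower side. Nuclear encoded respiratory chain genes had a median of 0.11 over 68 genes, with 2 past the fold on the higher side. Mitochondrially encoded genes took 13.7% of counts with S4U and 13.8% without, a ratio of 0.992 (0.9897 to 0.995), and their only member past the fold was the transfer RNA gene mt-Tm with 65 counts with S4U and 110 without. Genes of pyrimidine uptake and metabolism, the pathway that handles the label itself, had none of 28 past the fold and a median of -0.03. In that list Uck1, a uridine-cytidine kinase gene, was highest with 139 counts with S4U and 99 without, and Upp1, the uridine phosphorylase gene, lowest with 82 and 108. Cholesterol and fatty acid synthesis had none of 33 past the fold and a median of -0.08, with Hmgcs1, an early enzyme gene of the pathway, at 218 CPM with S4U and 290 CPM without. In iodoacetamide-treated cells the medians were -0.17 for glycolysis and hypoxia, 0.10 for the nuclear encoded respiratory chain, 0.05 for mitochondrially encoded genes, and -0.11 for both pyrimidine and cholesterol genes.

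Genes of fibroblast identity and shape were nearly level. Matrix genes (24), actin and SRF targets (25) and YAP/TEAD targets (20) had medians of 0.01, -0.07 and -0.09, with none past the fold. Col3a1 was the highest matrix gene with 49.1 CPM with S4U and 39.4 CPM without. Among fibroblast markers Pdgfrb, a growth factor receptor gene, was the 1 past the fold, with 166 counts with S4U and 90 without, a ratio of 1.88 (1.45 to 2.46). None of 30 SR and hnRNP splicing factor genes passed the fold, with a median of -0.13. Of 36 proteasome subunit genes, with a median of 0.03, 1 passed it on the higher side, Psmb5. The share of all genes compared that were 1.5-fold or more higher was 1.97%. Psmb5 had 121 counts with S4U and 80 without. In iodoacetamide-treated cells it had 30 and 53 in that order, under the minimum. Its log2 ratio there was -0.33 (-1.03 to 0.338), an interval that included 0.

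**Figure D5:**
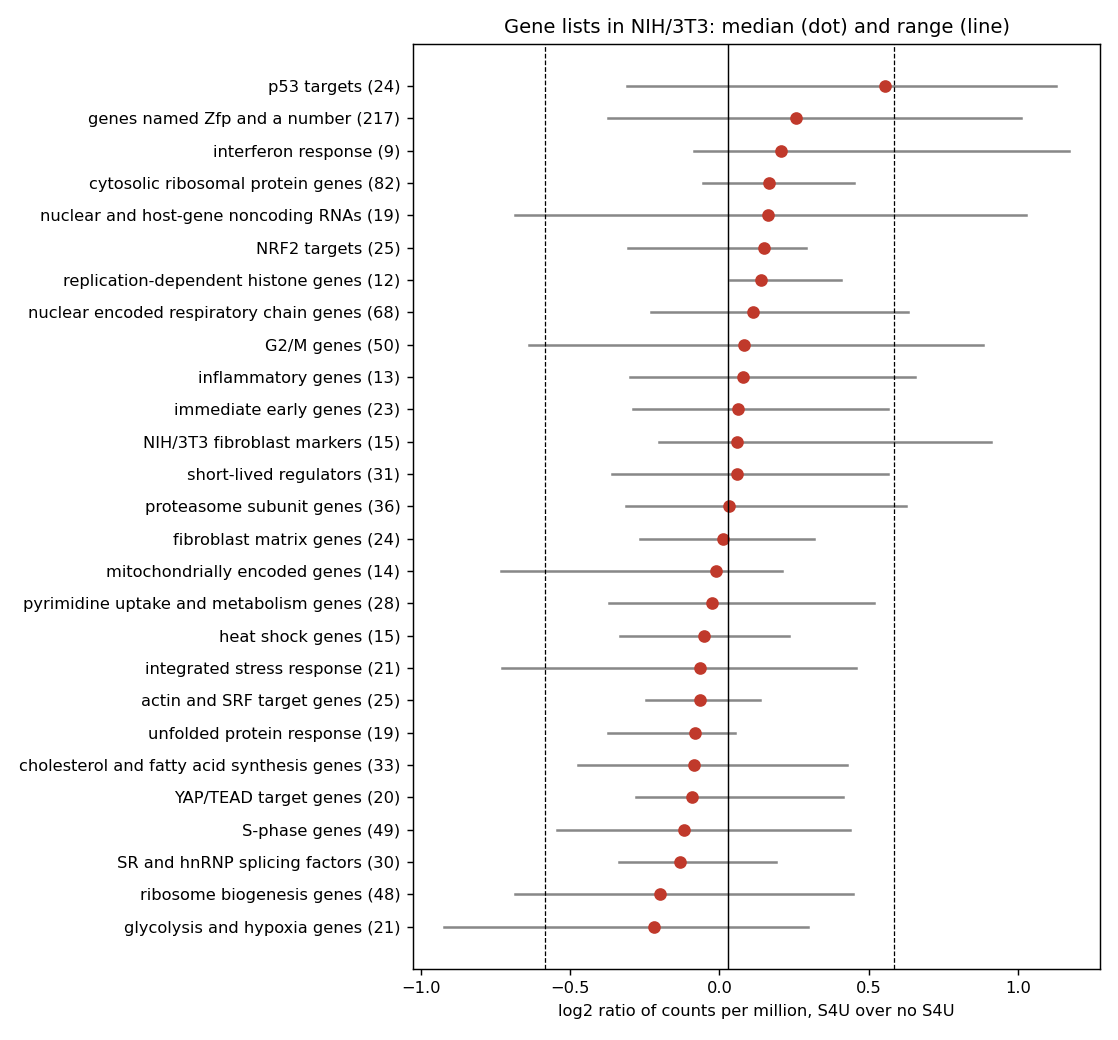
Log2 ratio of CPM, S4U over no S4U (horizontal axis), of each gene list with at least 5 genes of 100 counts or more, with the number of such genes in parentheses. Dots are medians, grey lines run from the lowest to the highest member, dashed lines mark a 1.5-fold ratio and the solid vertical line the median of all genes. The p53 target list has the highest median, at 0.55, and glycolysis and hypoxia genes the lowest, at -0.22. The lists were chosen with earlier results of these data known.

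Zinc finger genes were looked at after their values were seen. Of 371 genes named Zfp and a number, 217 had at least 100 counts, 25 of these were 1.5-fold or more higher, and none was 1.5-fold or more lower, against 1.97% and 0.708% of all genes compared. Of the 217, 184 lay above 0, against 5340 of the 9609 genes compared, and the median was 0.26. Since the set was chosen for these values, they are a description only. Zfp52 had 476 counts with S4U and 250 without, a ratio of 1.94 (1.66 to 2.27), and Zfp595 had the highest ratio of the set, with 91 counts with S4U and 46 without. In iodoacetamide-treated cells 16 of 134 were 1.5-fold or more higher and 2 were that much lower, against 2.37% and 2.14% of all genes there. Many of these genes are near copies of each other, and their counts are uncertain for the same reason as those of the ribosomal protein genes.

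The intronic share of reads also differed. Intronic reads were 9.52% of the exonic and intronic reads with S4U (95% interval 9.50 to 9.54) and 7.90% without (7.88 to 7.92), a ratio of 1.20, and the median cell had 7.91% with S4U and 6.87% without. In iodoacetamide-treated NIH/3T3 cells the shares were 9.38% with S4U and 6.68% without. In HEK293T cells they were 36.0% with S4U and 31.3% without. The part of intronic reads in the ratios of single genes was not tested.

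The authors' call of newly synthesised RNA gave a low background in both groups. It marked 0.785% of counts with S4U (0.779 to 0.790) and 0.728% without (0.722 to 0.733), a ratio of 1.08 (1.07 to 1.09). Over nuclear protein-coding genes the shares were 0.901% (0.894 to 0.908) with S4U and 0.829% (0.822 to 0.835) without. Over mitochondrially encoded genes they were 0.420% (0.409 to 0.432) with S4U and 0.405% (0.394 to 0.416) without, where the intervals overlapped. With iodoacetamide the same call marked 33.1% of counts in S4U cells and 1.08% in cells without S4U. The deposited fraction of mutated reads per cell had a median of 0.838% with S4U and 0.789% without. By read class, the call marked 0.675% of exonic reads with S4U and 0.640% without, and 1.93% and 1.87% of intronic reads in that order. What the larger intronic share with S4U adds to the ratio of 1.08 was not tested.

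Among genes with a measured new RNA share, median ratios were close to 0 at every level of that share. The share of newly synthesised counts came from cells with both S4U and iodoacetamide, for genes with at least 100 counts there. This left 5078 of the 9609 genes compared, with 36 of the 189 higher genes and 38 of the 68 lower ones. In 4 like-sized groups of rising share, the median log2 ratios were 0.03, -0.04, 0.00078 and 0.03. The 36 genes in this set that were 1.5-fold or more higher had a median new share of 55.0%, the 38 that were 1.5-fold or more lower had 49.3%, and all had 50.4%. Across the 4 groups, in the same order, 0.236%, 0.631%, 0.783% and 1.19% of genes were 1.5-fold or more higher, and 0.0787%, 1.498%, 0.940% and 0.475% were 1.5-fold or more lower.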

How the data were processed

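Whole and newly synthesised RNA were counted by sci-fate in single cells of a human and mouse mixture. The authors deposited raw counts per gene and cell, per the file headers without normalization, and a cell annotation that gives species, labelling group, exonic and intronic reads, and a fraction of mutated reads per cell, which the authors computed. Per the submitters' processing notes, Trim Galore 0.4.1, STAR 2.5.2b, SAMtools 1.3, Picard 1.105 and the hg19 and mm10 builds were used. The sources used here do not give how duplicates were collapsed, whether counting used strand, or the rule of the new call.

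Counts on mouse genes, of which 49585 are annotated, were summed over the cells of each group and divided by the sum of all mouse counts. Ratios carry exact Clopper-Pearson 95% intervals from the conditional binomial, levels exact Poisson intervals and shares exact binomial ones. PCR reads are not independent molecules, and all intervals cover counting error only. With 1 culture a side no test was made. Genes needed 100 counts over both groups, and 1.5-fold was used to count genes. The 15 genes named at each end had the interval bound nearest to 1 farthest from it. From each list the text could also name up to 4 members with the most counts and the highest and lowest ratio. Other p53 targets, Zfp genes, Exoc4, Snhg1 and Zfas1 fall outside this rule and were named after their values were seen. The members and lists were chosen with earlier results of these data known.

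Cells called as both species and 43 mouse cells without a labelling group were left out. No doublet caller was run, so doublets of the same species remain. HEK293T genes were matched by symbol in capitals. Cells were thinned to 3000 counts to compare shares of cells. The ratio was checked on simulated counts. Python 3.11.15, numpy 2.4.6, scipy 1.17.1, pandas 2.3.3 and matplotlib 3.10.9 were used, with edgeR 4.0.16 in R 4.3.3 for TMM factors. Alternatives were other scalings, count minimums, a fold of 2, protein-coding genes only, equal weight per cell and stricter cell filters. Nothing was converted between genome builds, and no gene lengths were used.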

Additional observations from a re-analysis of the deposited data

Results flagged for a closer look

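Newly synthesised RNA was called in 0.785% of counts of S4U cells that had no iodoacetamide, against 0.728% in cells with neither treatment. It is listed here because this readout lies outside the expression comparison and stood above the level in the control cells. The call was more frequent on intronic reads (1.93% with S4U, 1.87% without) than on exonic ones (0.675% and 0.640%). Intronic reads were 9.52% of exonic and intronic reads with S4U and 7.90% without. The difference, and the part of read class in it, was not tested, since each group was 1 culture.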

How the results depend on the processing

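The share of genes 1.5-fold or more higher and lower was 3.09% and 1.15% with a minimum of 50 counts, 13.9% and 8.80% with no minimum, and 0.250% and 0.0208% with a fold of 2. With a minimum of 400 counts 0.705% were higher. The median log2 ratio of the p53 target list was 0.51 with TMM scaling, 0.59 with the minimum of 400 counts and 0.59 with each cell weighted equally. It lay between these values under the other settings, and no member was 1.5-fold lower under any of them. The ratio of the intronic share was 1.15 as a median over cells and that of the mitochondrially encoded share 0.996. The 30 genes at either end gave 321 alternative values, all on the same side and past the fold. These genes were picked for their extreme ratios, and a count minimum leaves the ratio of a gene unchanged. That outcome was therefore largely set in advance and is no check of the ratios. The other named genes and lists gave 1813, of which 136 moved by more than a tolerance. For a gene this was the counting interval of its ratio, and for a list it was set from the interval of its summed ratio. A change of side was counted only for main values past the fold, and 0 of these changed side. Some list medians near 0 changed sign. With TMM scaling fibroblast matrix genes went from 0.01 to -0.03 and proteasome subunit genes from 0.03 to -0.01. Leaving out mitochondrially encoded genes together with Gm42418 and Gm26917 was added after seeing the data. No paired analysis was possible because each group was 1 culture. Replicates could not be left out for the same reason. Depth limits ratios of genes near 100 counts to changes of over 1.5-fold.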
